A study of Mus musculus with 31 samples.

Results

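Bortezomib blocks the catalytic core of the proteasome, and its effect on ribosome occupancy was read here in ISR-competent squamous cell carcinoma (SCC) cells of the mouse. Ribosome-protected fragments (RPFs), the short mRNA pieces that a translating ribosome shields from nuclease, were compared between 4 libraries of S51 cells given bortezomib and 3 libraries of S51 cells given vehicle. These are 7 of the 15 RPF libraries and of the 31 libraries of the series. Every gene that passed a filter on low counts was included, which was 9457 of the 20704 genes in the RPF table. Genes were then arranged in 122 functional classes written from textbook membership, and the classes were ranked by the median RPF change of their tested members. The classes and their members were chosen with earlier results of these data known, so the ranking is a description and no independent test. Ribosomal proteins, chaperones and focal adhesion genes were set aside, since the question was which other functions changed.

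Both groups are labelled as squamous cell carcinoma of the genotype HRasG12V:TgfbrIIfl/fl, while the study's list of lines gives S51 and S51A cells as HRasG12V with TgfbrII D/D. They are keratinocytes with a myc-tagged wild-type eIF2α (S51) expressed from a PGK promoter after Cas9 ablation of both endogenous Eif2s1 copies. The S51A cells, whose libraries entered the filter and the estimate of spread for every test, and whose response is set beside that of S51 cells, carry the non-phosphorylatable eIF2α in the same background. Both are lines grown from single cells, and the study describes pooling clones of a genotype. Treatment was 100 nM bortezomib or DMSO, for 4.5 h in the labels and 4 h in the methods. The labels do not say whether replicates were separate cultures, so p-values measure only the spread between these libraries, which may be technical. Titles of the S51 bortezomib and S51A vehicle samples had been exchanged in the record, and the columns were assigned by the note on that exchange and by the study's own table that names conditions.

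The vehicle libraries held 2036482 to 3995041 counts and the bortezomib libraries 1038826 to 2609137. Vehicle replicate 2 stood apart from the other vehicle libraries. Its log2 CPM correlated with theirs at Pearson's r of 0.954 and 0.947, across genes, while the other two vehicle libraries correlated at 0.988. It had 735 genes more than 1.5-fold above both other vehicle libraries and 1425 genes more than 1.5-fold below both, whereas the other vehicle libraries had 84 to 113 above and 114 to 135 below, and bortezomib libraries 56 to 148 above and 87 to 299 below. The counts and the median of each described class are therefore given with and without it. Markers of keratinocytes were high in every library, with all 13 tested and a summed level of 29920 to 35640 CPM in vehicle and 33390 to 38380 CPM in bortezomib. The fibroblast genes Col1a1, Col1a2 and Dcn, the immune genes Ptprc, Lyz2 and Cd3e, the endothelial gene Cdh5 and the melanocyte genes Dct and Tyr had no count in any of the 7 libraries. Summed levels in vehicle and bortezomib were 0.482 to 4.24 and 5.73 to 8.39 CPM for fibroblast markers, 7.42 to 16.9 and 7.27 to 14.5 CPM for immune markers and 2.83 to 5.96 and 1.68 to 8.60 CPM for endothelial markers. Melanocyte markers summed to 0.248 to 1.45 CPM in vehicle and 0 to 1.51 CPM with bortezomib. Of the 5 fibroblast markers 1 had enough counts to be tested, and it was called higher with bortezomib. Among the 4 immune and the 3 endothelial markers 1 each was tested and not called, and no melanocyte marker was tested. Of the 13 keratinocyte markers 1 was called higher and 1 lower. The part of other cells in the results was not tested. Eif2s1, the replaced gene, which the transgene also carries, lay at 162, 81.2 and 171 CPM in vehicle and 164, 170.3, 196 and 148 CPM with bortezomib, overlapping ranges with a log2 fold change of 0.28 ± 0.17, adjusted p = 0.219. CPM values are relative to all RPF counts of a library and not scaled by gene length, and errors beside fold changes are standard errors.

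A proteasome degrades proteins tagged with ubiquitin, and it is built of a barrel of α and β rings capped by an ATPase ring and a lid. When its activity is blocked, transcription factors that are normally destroyed by it, among them p53 and NRF2, are known to accumulate, and misfolded proteins call up the heat shock response. Phosphorylation of eIF2α at S51, the core of the integrated stress response (ISR), lowers initiation on most mRNAs while favouring a few with upstream open reading frames, of which Atf4 is the best known. Footprints on a coding sequence depend on both the amount of its mRNA and its initiation and elongation, so the total RNA of the same cells is set beside them. In these relative counts a change in the RNA content of a cell cannot be told apart from a change in the other genes.

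Promoters of 10 genes that rose are shown for known response elements in 4 of the ranked classes. Each stretch is read from RefSeq on build GRCm38.p6 in the direction of transcription, with the matched letters in capitals, and lies within 250 bases before the annotated start. TGATGNAA, read on both strands, is the C/EBP-ATF response element through which ATF4 acts. It occurs in Chac1, Slc7a11, Nupr1 and Herpud1 among the members called higher.
Chac1 (chr2:119351039-119351066, plus strand): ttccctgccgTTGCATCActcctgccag
Slc7a11 (chr3:50443662-50443689, minus strand): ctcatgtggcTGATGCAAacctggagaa
Nupr1 (chr7:126625563-126625590, minus strand): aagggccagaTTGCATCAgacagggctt
Herpud1 (chr8:94386307-94386334, plus strand): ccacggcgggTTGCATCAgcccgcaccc
The windows are the 250 bases before and 50 after a start, known for 7717 of the 9457 tested genes. TGATGNAA was present in 10 of 35 ATF4 target windows (28.6%), against 2.46% of the tested genes' windows and 4.51% of those of all 27025 genes. Genes called higher had it in 3.01% of their windows.

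TGACNNNGC is the core of the antioxidant response element, bound by NRF2 with small MAF proteins, and the related factor NRF1 recognizes the same core in proteasome genes. It was searched on both strands. Of these windows 3 belong to NRF2 targets and 2 to proteasome subunits.
Gclm (chr3:122245413-122245441, plus strand): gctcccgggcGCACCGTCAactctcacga
Prdx1 (chr4:116685456-116685484, plus strand): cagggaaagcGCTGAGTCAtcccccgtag
Txnrd1 (chr10:82859104-82859132, plus strand): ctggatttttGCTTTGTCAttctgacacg
Psmc6 (chr14:45329587-45329615, plus strand): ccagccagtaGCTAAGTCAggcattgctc
Psmd12 (chr11:107479278-107479299, plus strand): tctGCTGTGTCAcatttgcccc
The core was found in 14 of 37 NRF2 target windows (37.8%) and 6 of 30 proteasome windows, against 17.1% of tested genes. The proteasome share was close to that of the tested genes. TCACNCCAC, a sterol regulatory element, was found in 1 of 23 windows of cholesterol genes (4.35%), against 1.3% of tested genes and 1.44% of all genes.
Hmgcs1 (chr13:119690204-119690232, plus strand): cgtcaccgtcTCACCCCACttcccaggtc
CCAAT, a short and common element, was in 82.6% of the cholesterol windows and 85.7% of the histone windows, against 43.2% of tested genes and 41.1% of all genes. These matches describe the letters of a window and do not show binding. Target lists can hold genes known for such elements, so the shares of these lists are no result about the response to bortezomib.

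With bortezomib, RPFs rose more than 1.5-fold at 698 genes (7.38% of 9457) and fell at 1059 genes (11.2%), at an adjusted p below 0.05 in edgeR's quasi-likelihood test. The groups did not overlap for 628 of the higher and 941 of the lower genes, while 15.8% and 16.5% of all tested genes lay apart on these sides. Called genes are picked for a difference between the same groups, so these counts add no separate support. Without vehicle replicate 2 the counts were 642 and 910, and 1316 of the 1757 genes were still called the same way. Of 122 classes, 121 had at least 6 tested members. The median change was above 0 in 76 and below 0 in 45, while the median over all tested genes was at 0 by scaling. Outside the groups set aside, the highest medians belonged to p53 targets, proteasome subunits, NRF2 targets, cohesin and condensin, keratins, ATF4 targets, cholesterol synthesis, ubiquitin genes, replication-dependent histones and V-ATPase subunits. The lowest belonged to MAPK feedback genes, homeobox factors, nuclear receptors, forkhead factors, bHLH factors, Kruppel-like factors, Hippo and YAP genes, G protein-coupled receptors, elongation factors and the EGF receptor family. Circadian clock genes are added because over 30% of them were called lower.

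**Figure D1:**
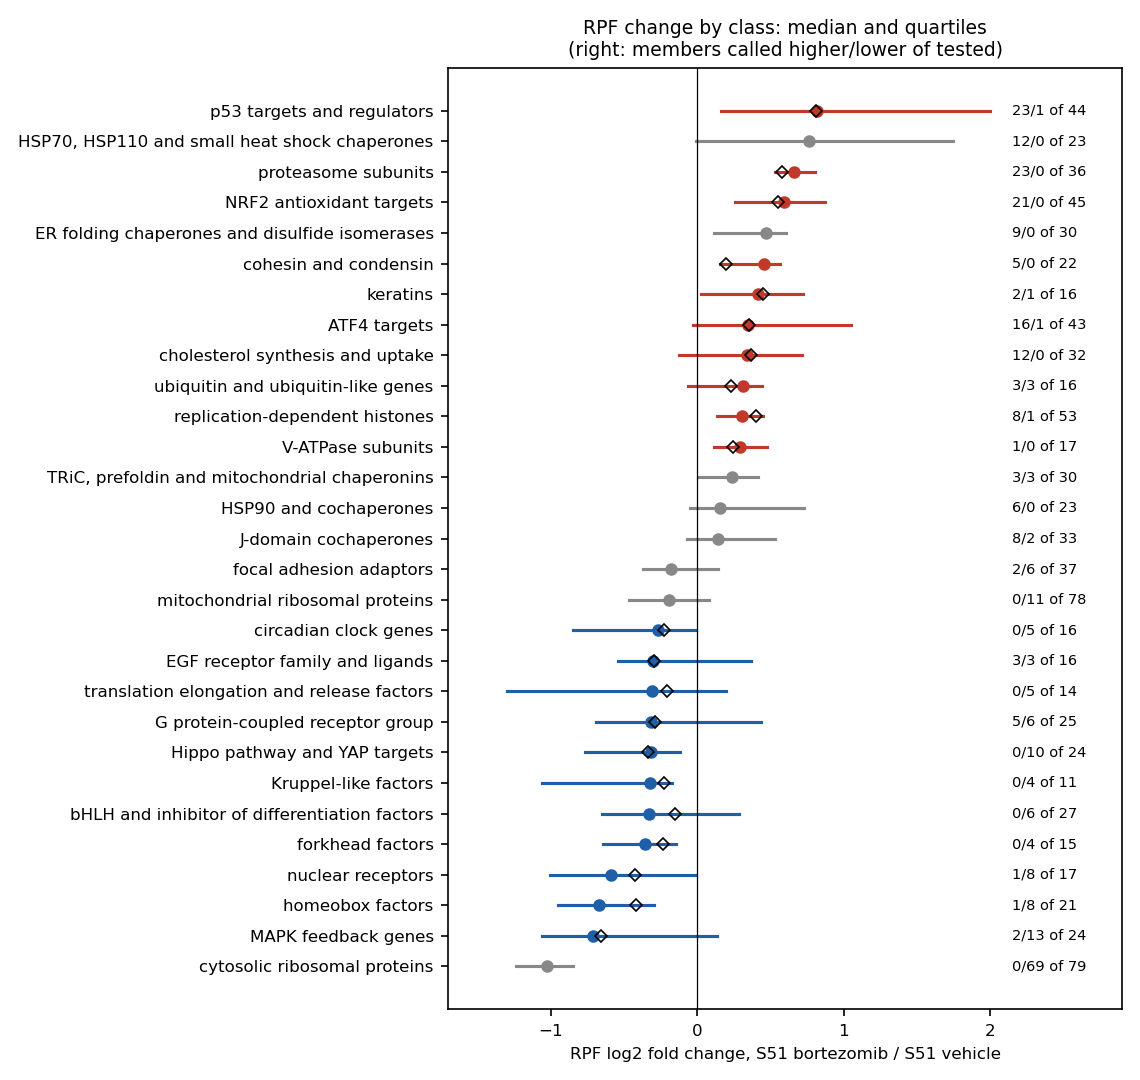
RPF change by class, S51 bortezomib against S51 vehicle, as the median log2 fold change (circles) with quartiles (lines), the median without vehicle replicate 2 as open diamonds, and members called higher and lower on the right. Red and blue mark classes described in the text and grey those set aside. The medians run from −1.02 for cytosolic ribosomal proteins to 0.82 for p53 targets.

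The classes set aside give the scale. Cytosolic ribosomal proteins had a median of −1.02 with 69 of 79 called lower, and HSP70, HSP110 and small heat shock chaperones a median of 0.76 with 12 of 23 called higher. ER chaperones had a median of 0.47 and focal adhesion adaptors one of −0.18. The p53 class exceeded every chaperone class in its median, and MAPK feedback genes came closest to the ribosomal proteins at the other end.

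Targets and regulators of p53, the transcription factor that arrests or kills cells after DNA damage and other stress, formed the highest class. Of its 44 listed genes all 44 were tested, 23 were called higher and 1 lower, and the median log2 fold change was 0.82. The counts were 24 and 1 and the median 0.81 without vehicle replicate 2. Mdm2, the ubiquitin ligase that p53 induces and that degrades p53, had 52.4, 40.6 and 41.8 CPM in vehicle and 395, 407, 345 and 358 CPM with bortezomib. Every bortezomib library lay above every vehicle library, and the fold was 8.34 (log2 3.06 ± 0.12, adjusted p = 1.54e-13). Cdkn1a, the CDK inhibitor p21, went from 74.7, 119 and 69.9 CPM to 652, 540.4, 512 and 581 CPM without overlap, a log2 fold change of 2.72 ± 0.15, adjusted p = 8.81e-12. Trp53inp1, a stress protein of autophagy and cell death, had 2.48, 0.967 and 1.49 CPM in vehicle and 40.8, 38.3, 27.99 and 31.4 CPM with bortezomib, a log2 fold change of 4.29 ± 0.30, adjusted p = 5.46e-10. Vehicle footprints on this gene were few, so the size of its fold is imprecise.

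Several members act in cell death. Pmaip1, which encodes the BH3-only protein NOXA, had 19.8, 10.2 and 25.6 CPM in vehicle and 129, 131, 133 and 137 CPM with bortezomib, a log2 fold change of 2.76 ± 0.17, adjusted p = 1.12e-10. Apaf1, the scaffold of the apoptosome, rose by 1.91 ± 0.14, adjusted p = 5.82e-10, and the death receptor gene Tnfrsf10b by 2.28 ± 0.13, adjusted p = 2.84e-11. Fas, another death receptor, had 0, 0.483 and 1.49 CPM in vehicle and 7.28, 7.65, 6.81 and 7.84 CPM with bortezomib, with 1 vehicle library at 0. Bbc3, which encodes PUMA, was not called (log2 fold change 0.87 ± 0.46, adjusted p = 0.161). Btg2, an antiproliferative gene, rose by 3.11 ± 0.21, adjusted p = 2.45e-10, Polk, a translesion DNA polymerase, by 2.74 ± 0.18, adjusted p = 2.01e-10, and Gtse1, a mitotic regulator of p53, by 1.64 ± 0.13, adjusted p = 1.69e-09.

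Gadd45a, a growth arrest gene that ATF4 also induces, went from 8.15, 13.1 and 9.21 CPM to 37.8, 55.5, 45.8 and 64.4 CPM, a log2 fold change of 2.36 ± 0.26, adjusted p = 5.29e-07. Its relative Gadd45b was the only member called lower, at −0.93 ± 0.17, adjusted p = 0.000364. Trp53 itself, which encodes p53, changed by 0.053 ± 0.094, adjusted p = 0.707 and was among the members with more footprints, at a mean of 471 CPM in vehicle. Perp, the member with the most footprints at 1280.0 CPM, was not called (−0.15 ± 0.078, adjusted p = 0.142). Total RNA of the class moved with the footprints, with a median of 0.82 and 25 of 44 called higher (5.7% of all genes). Translation efficiency (TE), the RPF change relative to that of total RNA in one model of the same libraries, was called higher (1.17% of all genes) for 1 member, Mdm2 (0.88, adjusted p = 1.24e-06).

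Subunits of the proteasome, the complex that bortezomib inhibits, came next. Of 40 listed genes 36 were tested, 23 were called higher and 0 lower, with a median of 0.66 and quartiles from 0.53 to 0.80. Leaving out vehicle replicate 2, the count was 18 and the median 0.58. All 6 Psmc genes of the ATPase ring were called higher, as were 6 of 7 Psma genes of the α ring, 8 of 14 Psmd genes of the cap and 3 of 8 Psmb genes of the β ring. Psmd2, a scaffold of the cap and the member with the most footprints, had 505, 475 and 524 CPM in vehicle and 854, 859, 894 and 868 CPM with bortezomib, a log2 fold change of 0.79 ± 0.07, adjusted p = 1.47e-08. Psmd1, its partner scaffold, had 299, 162 and 327 CPM and 517, 562, 659 and 616 CPM, a log2 fold change of 1.16 ± 0.16, adjusted p = 9.59e-06, and vehicle replicate 2 was the lowest library there.

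In the ATPase ring, Psmc6 had 168, 122 and 181 CPM in vehicle and 301, 330.0, 354 and 302 CPM with bortezomib, and Psmc2 rose by 0.96 ± 0.081, adjusted p = 7.61e-09. The groups did not overlap for 31 of the 36 tested subunits, against 15.8% of all tested genes that lay apart on the higher side. Psmb10, a β subunit of the immunoproteasome, was not called, −0.46 ± 0.16, adjusted p = 0.0333, and Psmd9, an assembly chaperone, changed by −0.017 ± 0.15, adjusted p = 0.944. Total RNA rose with the class, with a median of 0.57 and 16 of 36 called higher, and no subunit had a called TE change. Zfand2a, an arsenite-inducible protein that binds the proteasome, lies outside this class and went from 1.06, 2.42 and 1.74 CPM to 94.6, 114, 83.2 and 78.4 CPM. Its log2 fold change was 5.72 ± 0.24, adjusted p = 2.24e-13, its total RNA change 3.32 and its TE change 2.42 (adjusted p = 7.51e-07).

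Targets of NRF2, the factor that induces glutathione synthesis and other antioxidant enzymes, had a median of 0.59. Of 52 listed genes 45 were tested, 21 were called higher and 0 lower, and without vehicle replicate 2 the count was 20 and the median 0.55. Gclm, the regulatory subunit of glutamate cysteine ligase, had 38.3, 31.4 and 35.3 CPM in vehicle and 178, 135, 129 and 142 CPM with bortezomib, a log2 fold change of 2.04 ± 0.12, adjusted p = 6.5e-11. Gclc, the catalytic subunit of the same enzyme, rose by 1.07 ± 0.12, adjusted p = 7.34e-07. Hmox1, which degrades heme, had 31.5, 42.1 and 31.1 CPM and 173, 166, 147 and 176 CPM, a log2 fold change of 2.26 ± 0.13, adjusted p = 1.55e-11. The groups lay apart at each of these genes.

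Osgin1, an oxidative stress-induced growth inhibitor, showed the largest change of the class, 2.48 ± 0.16, adjusted p = 1.39e-10. Txnrd1, a thioredoxin reductase, rose by 1.38 ± 0.083, adjusted p = 6.22e-11, Srxn1, a sulfiredoxin, by 1.49 ± 0.14, adjusted p = 6.26e-08, and Prdx1, a peroxiredoxin, by 0.87 ± 0.14, adjusted p = 9.48e-05. Enzymes that supply NADPH rose as well, with 0.94 for Pgd, 0.65 for G6pdx, 0.66 for Taldo1 and 1.27 for Me1, all called. The ferritin heavy chain gene Fth1 rose by 0.81 ± 0.12, adjusted p = 3.56e-05, with a total RNA change of 0.18 and a TE change of 0.64 (adjusted p = 0.00105). Nfe2l2, which encodes NRF2, had 138, 108 and 134 CPM in vehicle and 224, 218, 229 and 232 CPM with bortezomib, a TE change of 0.61 (adjusted p = 0.000136). Nqo1, a quinone reductase often used as a marker of NRF2, was not called (0.55 ± 0.31, adjusted p = 0.183), and Txn1, with many footprints, changed by 0.20. Total RNA of the class had a median of 0.53 with 18 of 44 called higher.

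**Figure D2:**
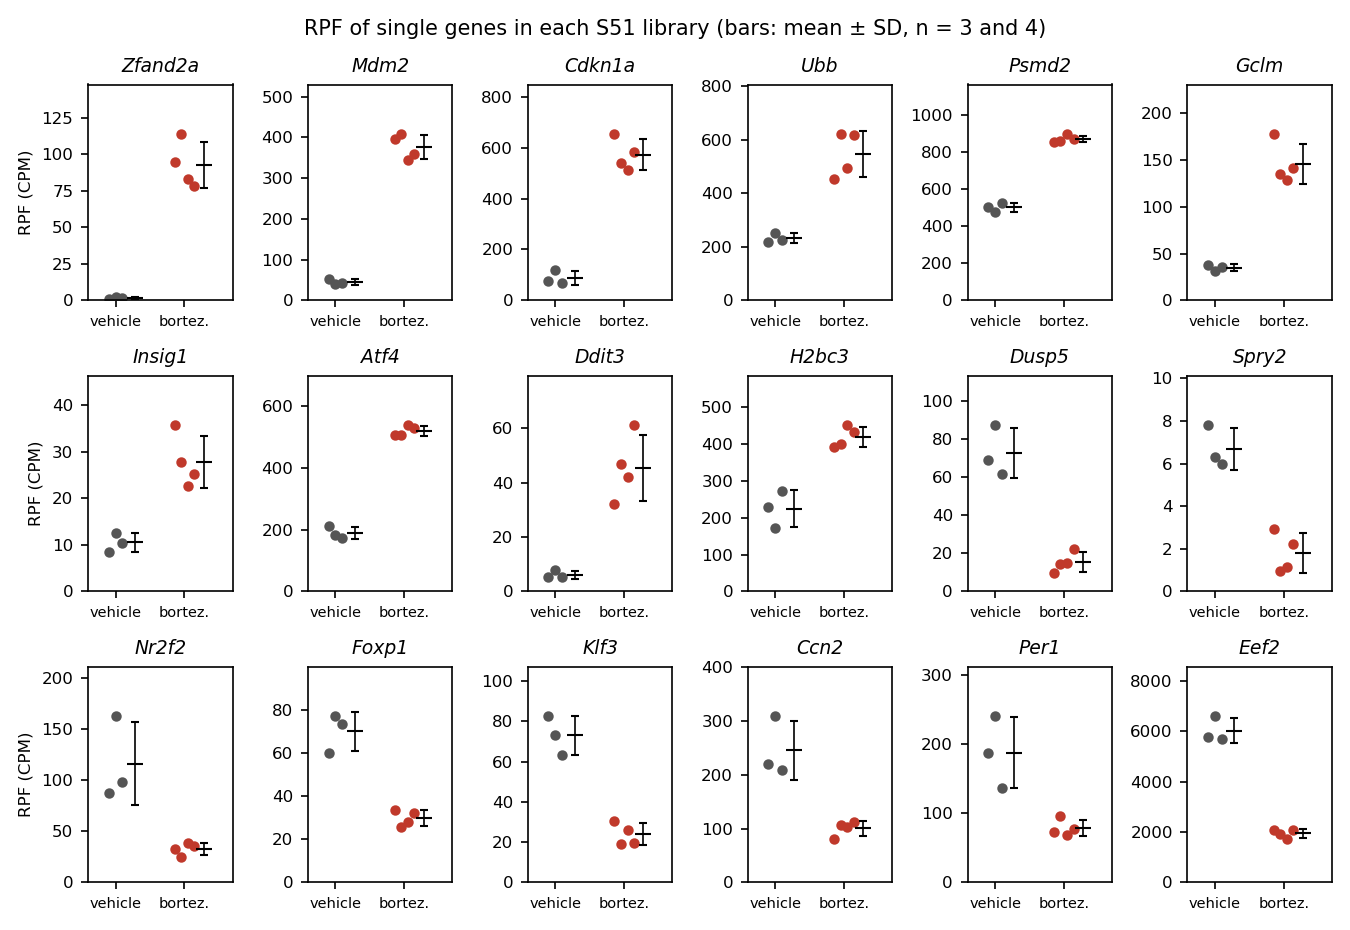
RPF level in CPM (linear axes from 0) of 18 genes in each S51 library, vehicle in grey and bortezomib in red, with bars for mean ± SD (n = 3 and 4). In each panel the groups lie apart, with Zfand2a to H2bc3 higher and Dusp5 to Eef2 lower with bortezomib.

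Genes of ubiquitin itself split. Of 18 listed genes 16 were tested, with 3 called higher and 3 lower and a median of 0.31. The counts were the same and the median 0.23 without vehicle replicate 2. Ubb, a polyubiquitin gene, had 218, 253 and 227 CPM in vehicle and 452, 619.8, 496 and 617 CPM with bortezomib, a log2 fold change of 1.23 ± 0.14, adjusted p = 1.28e-06. It rose without overlap between the groups, and its total RNA rose with it (1.19).

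Among the genes that fell were Rps27a, which encodes ubiquitin fused to a ribosomal protein, and Fau, which encodes a ubiquitin-like domain in such a fusion. Rps27a changed by −0.86 ± 0.17, adjusted p = 0.000636 and Fau by −1.28 ± 0.084, adjusted p = 2.01e-10, while their total RNA changed by 0.18 and 0.13. The TE of each was called lower. Ubqln1, which shuttles ubiquitinated proteins to the proteasome, was also called higher, at 0.72 ± 0.088, adjusted p = 2.17e-06. The ubiquitin genes share near-identical repeats, so unique mapping lowers their counts and can split reads between them. The share of all footprints on the class was about equal in both groups, at 0.57, 0.542 and 0.581% in vehicle and 0.534, 0.588, 0.538 and 0.57% with bortezomib.

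ATF4 targets, the genes through which the ISR adjusts amino acid supply and stress signalling, had a median of 0.35. Of 48 listed genes 43 were tested, 16 were called higher and 1, Jdp2, lower, and without vehicle replicate 2 the counts were 16 and 0 with a median of 0.35. Atf4, whose main open reading frame is translated when eIF2α is phosphorylated, had 212, 181 and 174 CPM in vehicle and 506, 506, 538 and 529 CPM with bortezomib, a log2 fold change of 1.46 ± 0.12, adjusted p = 3.25e-09. Its total RNA changed by −0.0041 and its TE by 1.48 (adjusted p = 2.11e-12). Atf5, a related factor with the same kind of leader, had 48.5, 68.2 and 37.1 CPM and 121, 185, 148 and 206 CPM, with total RNA at −0.16 and TE at 1.92 (adjusted p = 8.46e-11). Neither was called higher in total RNA.

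Ddit3, which encodes CHOP, had 5.31, 7.74 and 5.23 CPM in vehicle and 32.02, 46.9, 41.99 and 61.1 CPM with bortezomib, a log2 fold change of 2.94 ± 0.32, adjusted p = 4.77e-07. Ppp1r15a, which encodes the phosphatase subunit GADD34 that reverses eIF2α phosphorylation, had 2.48, 1.93 and 1.99 CPM and 8.73, 15.3, 17.02 and 16.8 CPM, a log2 fold change of 2.77 ± 0.31, adjusted p = 6.96e-07. For both, total RNA rose (1.64 and 1.22) and TE was also called higher (1.33, adjusted p = 0.0164, and 1.60, adjusted p = 0.00192). Vegfa, an angiogenic growth factor, was the remaining member with a higher TE (0.61, adjusted p = 0.00954). Trib3, a pseudokinase that ATF4 induces, rose by 1.13 ± 0.17, adjusted p = 2.89e-05, in total RNA by 1.19.

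Several genes of amino acid supply in the class stayed below the threshold of 1.5-fold. Asns, asparagine synthetase, had 1066, 938 and 1029 CPM in vehicle and 1202, 1137, 1115 and 1157 CPM with bortezomib, a log2 fold change of 0.19 ± 0.07, adjusted p = 0.0443. Psat1, the member with the most footprints at 1555 CPM and an enzyme of serine synthesis, changed by 0.23 ± 0.083, adjusted p = 0.0448, and Slc3a2, a subunit of amino acid exchangers, by 0.36 ± 0.086, adjusted p = 0.00298. Slc7a11, the cystine transporter, which also counts among NRF2 targets, rose by 0.80 ± 0.14, adjusted p = 0.000131. Chac1, which degrades glutathione, rose by 0.69 ± 0.21, adjusted p = 0.0177, a call that was lost when vehicle replicate 3 or bortezomib replicate 4 was left out. The 4 genes shared with the p53 class (Ddit4, Gdf15, Sesn2 and Tnfrsf10b) were all called higher. Without them 12 of 39 ATF4 targets were called higher with a median of 0.23, and 19 of 40 p53 genes with a median of 0.75.

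Genes of cholesterol synthesis and uptake had a median of 0.34, with 12 of 32 tested genes called higher and 0 lower, of 36 listed. Insig1, an ER protein that restrains the pathway, had 8.50, 12.6 and 10.5 CPM in vehicle and 35.7, 27.7, 22.7 and 25.2 CPM with bortezomib, without overlap, a log2 fold change of 1.39 ± 0.19, adjusted p = 1.17e-05. Enzymes along the pathway that were called include Hmgcs1 (0.91), Fdft1 (1.15) and Cyp51 (0.94). Srebf2, the transcription factor of the pathway, and Scap, its escort, were not called at −0.34 and −0.48. The median was 0.37 with 9 called without vehicle replicate 2, and it fell to 0.20 without bortezomib replicate 4 and to 0.11 in DESeq2. Total RNA had a median of 0.35 with 9 called higher.

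Replication-dependent histones, the proteins that package new DNA, had a median of 0.30. Of 67 listed genes 53 were tested, with 8 called higher and 1 lower. The latter was H1f0, a linker histone that is known to be made outside S phase and is thus no replication-dependent histone, at −0.63 ± 0.10, adjusted p = 8e-05. Of H2B genes 6 of 14 tested were called higher with a median of 0.61, of H2A genes 1 of 13, of H4 genes 1 of 10 and of H3 genes 0 of 10. H1f0 was not called without vehicle replicate 2. H2bc3 had 228, 173 and 273 CPM in vehicle and 393, 401, 451 and 432 CPM with bortezomib, a log2 fold change of 0.89 ± 0.12, adjusted p = 6.05e-06. H4c14, which lost its call without vehicle replicate 3, had 1034, 1162 and 976 CPM and 1659, 1596, 1609 and 1614 CPM, a log2 fold change of 0.62 ± 0.074, adjusted p = 1.81e-06. H2bc18, the member with the most footprints at 2215 CPM, was not called (0.36). Without vehicle replicate 2 the counts were 10 and 0 with a median of 0.40, and without vehicle replicate 3 the median was 0.15. Histone genes are near-identical copies, and unique mapping leaves the split of reads between them uncertain.

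Cohesin and condensin, the ring complexes that hold and compact chromosomes, had a median of 0.45 with 5 of 22 tested genes called higher, of 23 listed. Smc5, of the related SMC5/6 complex, had 66.6, 34.8 and 76.7 CPM in vehicle and 111, 114, 123 and 96.3 CPM with bortezomib, and Smc4, a condensin ATPase, 153, 56.6 and 165 CPM and 203, 203, 222 and 208 CPM. Vehicle replicate 2 was the lowest library at both genes, and Smc4 was not called without it. Without it 2 members were called and the median was 0.20. Counts also moved with other libraries, with 8 called without vehicle replicate 1, 12 without vehicle replicate 3, 8 without bortezomib replicate 2 and 3 without bortezomib replicate 3. Esco2, an acetyltransferase of cohesin, rose by 1.03 ± 0.26, adjusted p = 0.00405. Rad21, the member with the most footprints at 297 CPM, changed by 0.14.

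Keratins, the intermediate filaments of these cells, had a median of 0.42, but 16 of 53 listed genes were tested and only Krt15 (0.91 ± 0.30, adjusted p = 0.0245) and Krt16 (0.77 ± 0.13, adjusted p = 0.000122) were called higher, the former not without bortezomib replicate 3 or 4, with Krt80 called lower (−1.11 ± 0.28, adjusted p = 0.00392). Krt14, with Krt5 the keratin pair of basal cells, had 8458, 11016 and 8720.3 CPM in vehicle and 10631, 12816, 12364 and 13015 CPM with bortezomib, overlapping ranges with a log2 fold change of 0.38 ± 0.092, adjusted p = 0.00342. Krt5 had 11765, 13656 and 11940.2 CPM and 13925, 15749.5, 15238 and 15472 CPM, which lay apart, a log2 fold change of 0.28 ± 0.072, adjusted p = 0.00543. The median of the class was 0.22 without vehicle replicate 3, and 0.45 with the same counts without vehicle replicate 2. V-ATPase subunits, which acidify lysosomes, had a median of 0.29, with all 17 tested of 25 listed above 0 and 1 called, Atp6v1h (1.00 ± 0.16, adjusted p = 7.79e-05). That count was 4 without vehicle replicate 1, and 1 with a median of 0.24 without vehicle replicate 2. The share called, 5.88%, was below the 7.38% of all genes.

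**Figure D3:**
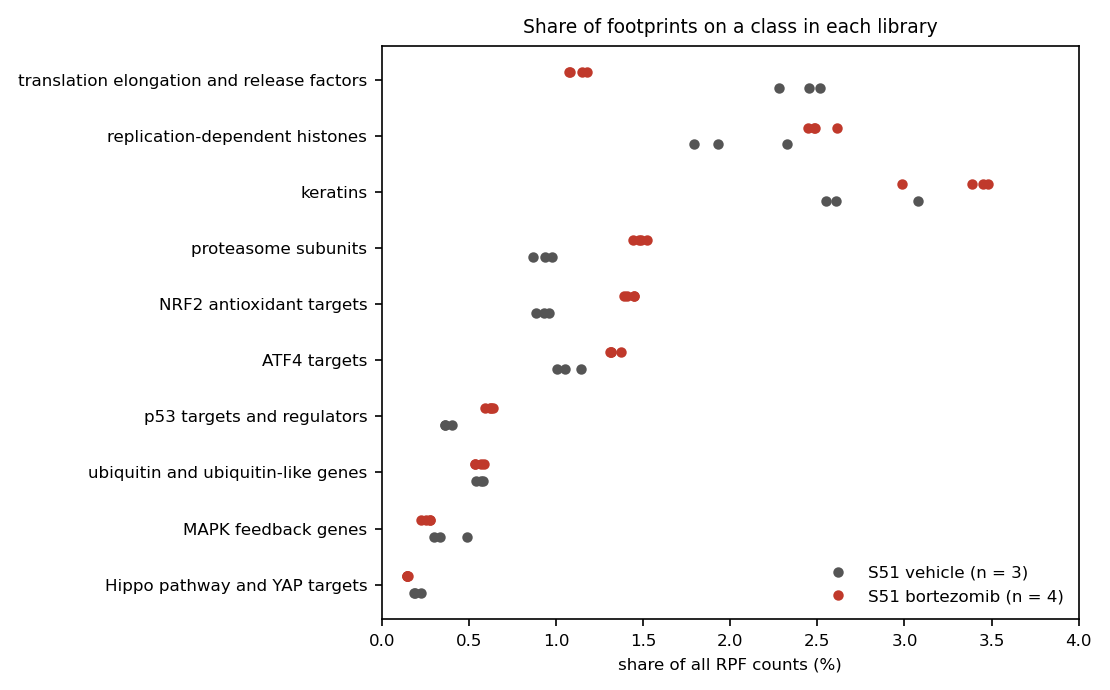
Share of all RPF counts (%, linear axis from 0) that fell on 10 of the classes in each S51 library, vehicle in grey and bortezomib in red. Proteasome, NRF2 and p53 shares are higher in every bortezomib library, elongation factor, MAPK feedback and Hippo shares lower, and ubiquitin and keratin shares overlap.

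Class sums can also be set as shares of all footprints in a library. Proteasome subunits took 0.939, 0.867 and 0.977% of RPF counts in vehicle and 1.49, 1.52, 1.48 and 1.44% with bortezomib. NRF2 targets took 0.934, 0.887 and 0.958% and 1.45, 1.45, 1.39 and 1.41%, and p53 genes 0.365, 0.402 and 0.361% and 0.626, 0.638, 0.593 and 0.619%. Each of these shares was higher in every bortezomib library. Histones took 2.02% on average in vehicle and 2.51% with bortezomib. Elongation factors took 2.45, 2.28 and 2.51% in vehicle and 1.18, 1.08, 1.07 and 1.15% with bortezomib, and cytosolic ribosomal proteins 12.1% and 6.01% on average. Shares sum to a fixed total, and the part of the ribosomal protein decline in other shares was not tested.

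At the other end, genes of MAPK feedback had the lowest median, −0.71. These are phosphatases, Sprouty and Spred proteins and other genes that ERK signalling induces or that restrain it, in cells that carry HRasG12V. Of 30 listed genes 24 were tested, 13 were called lower and 2 higher, against 11.2% lower among all genes, and without vehicle replicate 2 the counts were 13 and 4 with a median of −0.65. Dusp5, a nuclear ERK phosphatase, had 69.1, 87.02 and 61.7 CPM in vehicle and 9.46, 14.3, 15.1 and 22.4 CPM with bortezomib, a log2 fold change of −2.19 ± 0.20, adjusted p = 2e-08. Dusp6, its cytoplasmic relative, had 114, 145 and 114 CPM and 42.2, 33.5, 39.3 and 49.9 CPM, a log2 fold change of −1.57 ± 0.16, adjusted p = 1.76e-07. In both cases every bortezomib library lay below every vehicle library.

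The 3 tested Sprouty and Spred genes, inhibitors of RAS and RAF activation, all fell. Spry2 had 7.79, 6.28 and 5.97 CPM in vehicle and 2.91, 0.956, 1.13 and 2.24 CPM with bortezomib, which are few counts, with a log2 fold change of −1.89 ± 0.42, adjusted p = 0.00153. Spred1 changed by −1.08 ± 0.31, adjusted p = 0.0112, not called without vehicle replicate 3, and Spred2 by −1.04 ± 0.21, adjusted p = 0.000843. Ccnd1, the cyclin of G1 that this pathway induces, was the member with the most footprints, with 1455, 2322 and 1282 CPM and 905, 872, 724 and 748 CPM and a log2 fold change of −1.05 ± 0.14, adjusted p = 8.07e-06. Its vehicle level was highest in replicate 2. The phosphatases split, with 5 of 7 called lower and Dusp1 (1.41 ± 0.29, adjusted p = 0.000817) and Dusp16 (0.84 ± 0.27, adjusted p = 0.0232) called higher. Of the 5 regulators of RAS nucleotide exchange and hydrolysis (Sos1, Sos2, Nf1, Rasa1 and Rasa2) none was called, with values from −0.65 to 0.64. Total RNA of the class had a median of −0.37 with 9 of 24 called lower (9.59% of all genes).

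Transcription factor classes lay at several places in the ranking. The 5 among the lowest classes, homeobox factors, nuclear receptors, forkhead, bHLH and Kruppel-like factors together had 91 tested genes, of which 30 were called lower (33.0%) and 2 higher, with a median of −0.42. These 5 were taken because of their rank, so the share restates that choice. Medians near 0 were found in other ranked factor classes, at 0.062 for Zfp zinc finger genes, 0.037 for ETS factors and 0.029 for AP-1 and immediate early factors. Called lower were 17 of 185 (9.19%), 4 of 15 (26.7%) and 7 of 27 (25.9%), against 11.2% of all genes. Called higher were 9, 1 and 6 of them. The ETS and AP-1 shares called lower lay within the range of the 5 classes, from 22.2% for bHLH factors to 47.1% for nuclear receptors. SOX factors, with 5 of 19 listed genes tested, were too few to be ranked. They took 0.0224, 0.0392 and 0.0212% of RPF counts in vehicle and 0.00874, 0.0111, 0.0106 and 0.0110% with bortezomib, which lay apart. Total RNA of the 91 had a median of −0.16 with 22 called lower, and TE was called lower for 6 (3.99% of all genes).

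Among homeobox factors 8 of 21 tested genes were called lower and 1 higher, of 73 listed, with a median of −0.67, and the counts were 6 and 1 with a median of −0.42 without vehicle replicate 2 and 5 lower without bortezomib replicate 3. Dlx2, a distal-less factor, had 51.7, 109 and 51.5 CPM in vehicle and 12.4, 22, 21.9 and 21.8 CPM with bortezomib, a log2 fold change of −1.80 ± 0.25, adjusted p = 1.17e-05. The Iroquois genes Irx1, Irx2 and Irx5 had log2 fold changes of −1.14, −0.67 and −0.70, all called lower. Irx2 and Irx5 were not called without vehicle replicate 2. Hoxc13, a factor of hair keratin expression, was the one called higher on the list, from 3.90, 6.28 and 1.99 CPM to 19.7, 10.5, 15.9 and 13.4 CPM. The list does not hold every homeobox gene, and Nkx2-9, which is not on it, rose by 3.31 ± 0.39, adjusted p = 1.48e-06.

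Nuclear receptors, which are ligand-regulated transcription factors, had 8 of 17 tested genes called lower and 1, Ppard, higher, of 43 listed, with a median of −0.59. Without vehicle replicate 2 the counts were 5 and 1 and the median −0.43. Nr2f2, an orphan receptor, had 87.9, 162 and 97.8 CPM in vehicle and 32.8, 24.9, 38.2 and 35.8 CPM with bortezomib, a log2 fold change of −1.76 ± 0.19, adjusted p = 2.95e-07. Vehicle replicate 2 was the highest, and the other vehicle libraries also lay above every bortezomib library. Esrra, a receptor of mitochondrial gene programs, changed by −0.94 ± 0.24, adjusted p = 0.00507 in footprints and 0.29 in total RNA, and its TE changed by −1.18 (adjusted p = 0.000333). Its RPF call was lost without vehicle replicate 2. Nr3c1, the glucocorticoid receptor, was not called (0.15).

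Forkhead factors had 4 of 15 tested genes called lower and 0 higher, of 44 listed, and a median of −0.36, while the median of their total RNA was 0.0090. Without vehicle replicate 2 there were 2 lower and 1 higher in footprints and the median was −0.23. In total RNA 2 forkhead genes were called lower and 1 higher. Their TE had a median change of −0.37, with 0 called in either direction. Foxp1 had 59.9, 76.9 and 73.2 CPM in vehicle and 33.5, 25.8, 27.99 and 31.9 CPM with bortezomib, a log2 fold change of −1.23 ± 0.14, adjusted p = 7.37e-07, and Foxc1 changed by −1.65 ± 0.26, adjusted p = 5.36e-05. Foxo3, a factor of stress and starvation, was not called (0.40). Kruppel-like factors had 4 of 11 tested genes called lower, of 17 listed, namely Klf3 (−1.59 ± 0.16, adjusted p = 2.06e-07), Klf10 (−1.28 ± 0.12, adjusted p = 2e-08), Klf4 (−1.20 ± 0.15, adjusted p = 3.28e-06) and Klf13 (−0.92 ± 0.20, adjusted p = 0.00134), of which Klf13 was not called without vehicle replicate 2, leaving 3 and a median of −0.23. Their median of −0.32 became −0.49 without bortezomib replicate 1. Klf3 also fell in TE (−0.96, adjusted p = 7.53e-05). Klf5, with the most footprints of them, was not called (−0.21).

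The bHLH and inhibitor of differentiation class had 6 of 27 tested genes called lower, of 34 listed, and a median of −0.33, which was −0.15, with 2 higher and 6 lower, without vehicle replicate 2 and −0.068 without bortezomib replicate 3. The E proteins Tcf3, Tcf4 and Tcf12, partners of tissue-specific bHLH factors, were all called lower, at −1.04 ± 0.22, adjusted p = 0.000905, −1.22 ± 0.30, adjusted p = 0.00336 and −0.66 ± 0.15, adjusted p = 0.00164. Their total RNA changed by −0.037, −0.16 and 0.47, and their TE was called lower at −0.96, −1.05 and −1.13. These 3 genes account for every lower TE call in the class. Hes1, a NOTCH target, changed by −1.22 ± 0.23, adjusted p = 0.000364 with total RNA at −1.25.

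Circadian clock genes shared 4 tested genes with that class (Arntl, Bhlhe40, Bhlhe41 and Clock) and 2 with nuclear receptors (Nr1d1 and Nr1d2). They had 5 of 16 tested genes called lower, of 19 listed, with a median of −0.27 that became −0.46 without vehicle replicate 3. Per1, a repressor of the clock, had 187, 240.3 and 137 CPM in vehicle and 73.5, 95.6, 68.1 and 77.3 CPM with bortezomib, a log2 fold change of −1.27 ± 0.16, adjusted p = 2.53e-06. Nr1d1, which encodes REV-ERBα, changed by −1.09 ± 0.22, adjusted p = 0.00076. The count was 3 without bortezomib replicate 3, and 5 with a median of −0.22 without vehicle replicate 2. Clock and Cry1 were not called (−0.0043 and 0.047).

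Hippo pathway and YAP target genes, which link cell contact to growth, had 10 of 24 tested genes called lower and 0 higher, of 26 listed, with a median of −0.32. Leaving out vehicle replicate 2, there were 8 and the median was −0.34. Ccn2, a secreted YAP target, had 219, 308 and 208 CPM in vehicle and 80.8, 106, 103 and 112 CPM with bortezomib, a log2 fold change of −1.28 ± 0.16, adjusted p = 3.73e-06. Ajuba, an inhibitor of LATS kinases, changed by −1.26 ± 0.14, adjusted p = 5.99e-07 and F3, tissue factor, by −1.64 ± 0.18, adjusted p = 3.77e-07. Wwc1, an upstream activator of the pathway, changed by −1.10 ± 0.18, adjusted p = 7.08e-05 with a total RNA change of −0.31, and its TE changed by −0.77 (adjusted p = 0.00121). Yap1 and Wwtr1, the coactivators themselves, were not called (−0.32 and −0.077), nor were the kinase genes Lats2 and Stk3 (0.11 and 0.16).

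G protein-coupled receptors and the EGF receptor family had members called in both directions. The receptors had 5 of 25 tested genes called higher and 6 lower, of 144 listed, with a median of −0.31. The calls were 3 higher and 7 lower without vehicle replicate 2 (median −0.29) or bortezomib replicate 2 or 4, 3 and 6 without vehicle replicate 1, and 3 and 8 without vehicle replicate 3. Ackr3, a scavenger of CXCL12, changed by −1.95 ± 0.26, adjusted p = 5.99e-06, and F2rl1, a protease-activated receptor, by −0.69 ± 0.11, adjusted p = 4.65e-05. The EGF family had 3 called higher and 3 lower of 16 tested and 20 listed, with a median of −0.30 that became −0.085, with 2 higher and 5 lower, without vehicle replicate 3 and −0.18 without bortezomib replicate 4. They were 2 and 3 with a median of −0.30 without vehicle replicate 2. Lrig1, a negative regulator of EGF receptors, had 29.05, 41.1 and 35.3 CPM in vehicle and 6.55, 16.3, 10.6 and 14 CPM with bortezomib, a log2 fold change of −1.59 ± 0.22, adjusted p = 1.05e-05. The ligand gene Nrg2 changed by −1.16 ± 0.14, adjusted p = 2.81e-06, and the ligand gene Areg rose by 1.29 ± 0.24, adjusted p = 0.000277. Egfr was not called (0.30 ± 0.12, adjusted p = 0.0599).

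The list of elongation and release factors included 5 genes that fell in footprints. Of 14 listed and tested genes 5 were called lower and 0 higher, with a median of −0.31 in footprints, which was −0.20 with the same counts without vehicle replicate 2. In total RNA 2 were called higher and 1 lower, with a median of 0.14. Eef2, the translocase, had 5778, 6601 and 5699 CPM in vehicle and 2072, 1923, 1724 and 2067 CPM with bortezomib, a log2 fold change of −1.63 ± 0.072, adjusted p = 4.62e-13, while its total RNA rose by 0.93. Eef1a1, which delivers aminoacyl-tRNA, had 9993, 8667 and 10619.6 CPM and 3346, 3212, 3077 and 3517 CPM, with total RNA at 0.64. The groups lay apart at both genes.

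Eef1b2, Eef1g and Tpt1 had footprint changes of −1.55, −1.01 and −1.40, and all 5 genes fell in TE, from −2.55 for Eef2 to −1.32 for Eef1g. Tpt1, which is on the list, encodes the protein TCTP and is itself no elongation or release factor. These 5 mRNAs, like those of ribosomal proteins, are known TOP mRNAs, which start with a pyrimidine tract that mTORC1 regulates. The TOP mRNA of Pabpc1, poly(A)-binding protein, fell from 673, 638 and 739 CPM to 151, 112, 113 and 132 CPM, a log2 fold change of −2.43 ± 0.12, adjusted p = 2.73e-12, with total RNA at 0.24. Pabpc4 changed by −1.90 ± 0.18, adjusted p = 3.45e-08, with total RNA at 0.50. Eif5a, the initiation factor that also acts in elongation, and the release and rescue factors Gspt1, Etf1 and Pelo were not called (0.19, 0.20, 0.32 and 0.36). Eef1a1 has pseudogene copies, and its count under unique mapping is uncertain.

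**Figure D4:**
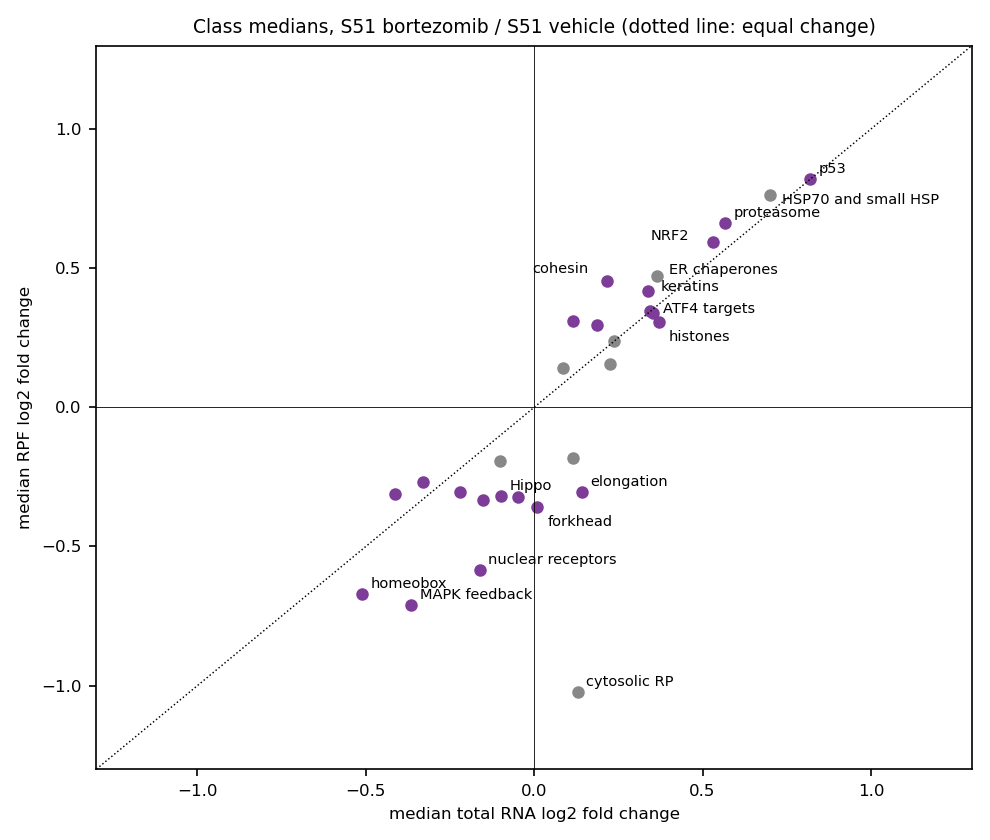
Median log2 fold change of each described class (purple) and set-aside class (grey) in total RNA (horizontal axis) and RPF (vertical axis), S51 bortezomib against vehicle, with the line of equal change dotted. Cytosolic ribosomal proteins (0.13 and −1.02) and elongation factors (0.14 and −0.31) lie below the line on the side of higher total RNA, and p53 genes (0.82 and 0.82) lie on it.

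Total RNA was sequenced from 4 libraries per group, with rRNA depletion. Of 11708 genes tested, 667 rose more than 1.5-fold (5.7%) and 1123 fell (9.59%), so that 37.3% of calls were higher. Scaled by library sizes alone, the counts were 416 and 1733, the share higher was 19.4%, and the median over all genes moved from −0.0070 to −0.16. Of the 692 genes with higher RPFs that were tested in total RNA, 330 were called higher there, as were 437 of 1056 in the lower direction. TE was called higher for 110 of 9424 genes (1.17%) and lower for 376 (3.99%), and with library sizes alone for 403 and 241. Among genes with lower RPFs 268 had a lower TE, and among those with higher RPFs 69 had a higher TE. TE contains the RPF change, so these overlaps follow in part from its definition. Ribosomal proteins gave 74 of the 376 lower TE calls.

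Coding length differed between the called genes. The median was 1404 nucleotides for all tested genes, 1500 for those called higher and 1251 for those called lower, or 1302 without ribosomal proteins. In 5 bins of about equal size by length, the median RPF change went from −0.053 for the shortest to 0.092 for the longest, and the median total RNA change from −0.049 to 0.13. Genes called lower made up 13.54% of the shortest bin and 6.68% of the longest. Length was not part of the test, and its part in the class values was not tested.

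**Figure D5:**
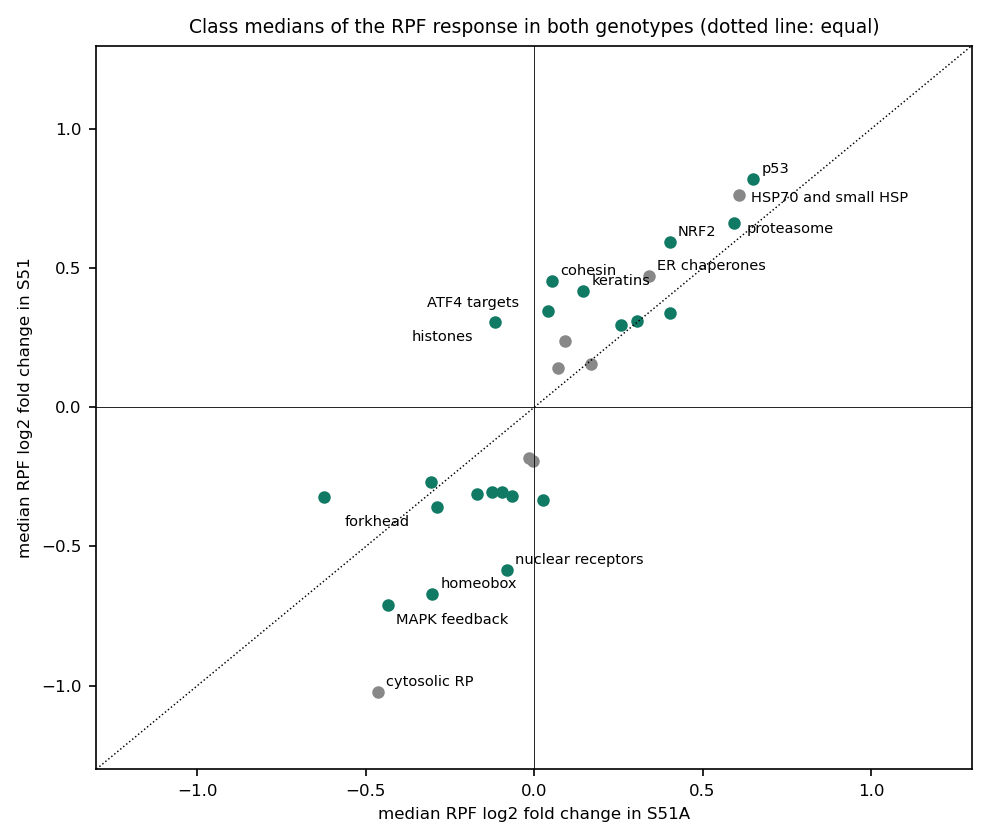
Median RPF log2 fold change of each class with bortezomib in S51A cells (horizontal axis) and S51 cells (vertical axis), described classes in green and set-aside classes in grey, with the line of equal change dotted. Proteasome subunits lie near the line, and ATF4 targets (0.040 and 0.35) and histones (−0.12 and 0.30) lie above it.

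In S51A cells, which cannot phosphorylate eIF2α, the responses were compared by a test of their difference. The S51 response was higher at 83 genes (0.878%) and lower at 93 (0.983%). Neither this test nor that of TE was run without vehicle replicate 2, so their dependence on that library was not tested. ATF4 targets had 7 of 43 higher in S51. Atf4 changed by 1.46 in S51 and 0.055 in S51A, a difference of 1.40 ± 0.16, adjusted p = 4.15e-05. Ddit3 changed by 2.94 and 0.52, a difference of 2.42 ± 0.49, adjusted p = 0.00735, and Chac1 by 0.69 and −0.90, a difference of 1.59 ± 0.30, adjusted p = 0.00465. Ppp1r15a, Atf5, Vegfa and Slc38a2 were the others. By contrast the shared p53 target Ddit4 changed by 2.52 and 2.53, and its difference was not past the threshold (−0.01 ± 0.23, adjusted p = 0.991).

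Histones had 10 of 53 higher in S51, with a class median of 0.30 in S51 and −0.12 in S51A. H4c14 changed by 0.62 and −0.18, a difference of 0.80 ± 0.10, adjusted p = 0.000103. Elongation factors had 3 of 14 lower in S51, namely Eef2, Eef1a1 and Eef1b2, and Eef2 changed by −1.63 and −0.50, a difference of −1.13 ± 0.10, adjusted p = 1.27e-06. In the p53 class 3 of 44 were higher and 1 lower in S51, the former including Gadd45a (2.36 and 0.34, a difference of 2.01 ± 0.37, adjusted p = 0.00365). For the proteasome no subunit differed by that test. Psmd2 changed by 0.79 and 0.62, a difference of 0.18 ± 0.093, adjusted p = 0.368. In the NRF2 class Hmox1 differed (0.75 ± 0.17, adjusted p = 0.0177).

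The largest single changes were taken among called genes whose groups lay apart and whose higher group had at least 10 counts in each library. Of the 15 highest, 14 belong to a listed class, against 4027 of all 9457 tested genes. The lists were chosen with earlier results known, so that count is no result about these genes. Among them is Zfp750, an epidermal differentiation factor, with 2.83, 4.35 and 2.24 CPM in vehicle and 31.3, 29.7, 30.3 and 20.7 CPM with bortezomib. Nkx2-9, a homeobox gene outside the lists, rose from 2.83, 4.83 and 0.498 CPM to 24.02, 27.7, 17.8 and 26.3 CPM. Gdf15, a secreted stress cytokine, had 0, 3.38 and 0.996 CPM and 32.02, 22.96, 21.6 and 30.8 CPM, with 1 vehicle library at 0. Hspa1a, the inducible HSP70, reached 105, 91.8, 113 and 105 CPM, while its vehicle libraries held at most 3 counts each, and no fold is given.

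Of the 15 lowest, 11 belong to a listed class, against the same 4027 of 9457 tested genes. Cxcl3, a neutrophil chemokine, had 85.7, 119 and 73.7 CPM in vehicle and 14.6, 11.5, 13.2 and 14 CPM with bortezomib, a log2 fold change of −2.77 ± 0.19, adjusted p = 4.81e-10. Lfng, a glycosyltransferase that modifies NOTCH, had 65.5, 92.3 and 54.02 CPM and 12.4, 12.4, 12.1 and 8.40 CPM, a log2 fold change of −2.62 ± 0.20, adjusted p = 1.4e-09. Pmepa1 and Nog, both inhibitors of TGF-β family signalling, changed by −2.75 ± 0.41, adjusted p = 3.09e-05 and −2.39 ± 0.41, adjusted p = 0.000132. Pou3f1, a POU factor of keratinocytes, changed by −2.30 ± 0.28, adjusted p = 1.81e-06. Ccni, a cyclin, changed by −2.20 ± 0.43, adjusted p = 0.000538 with a total RNA change of −0.12, and its TE changed by −2.05 (adjusted p = 0.000286). Footprints on Pik3ip1, an inhibitor of PI3K, which had the lowest value, were few, at 4.96, 11.1 and 3.48 CPM and 0, 0, 0.756 and 0.56 CPM.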

How the data were processed

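RPF libraries (15) and total RNA libraries (16) of S51 and S51A cells were used. The deposited values are raw read counts per gene that the authors made with Bowtie2 on mm10, with rRNA reads removed, repeats masked, duplicates marked and, for RPFs, lengths of 20 to 23 or 26 to 32 nucleotides kept. The labels name featureCounts as the counter and the methods name plastid. Unique mapping and the length filter lower counts of genes with near-identical copies. Depth ran from 1038826 to 3995041 RPF counts per S51 library, and counting error is largest for genes with few counts.

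Genes were filtered with filterByExpr (minimum count 10, total 15), scaled by TMM and fitted with edgeR 4.0.16 in R 4.3.3, with one coefficient per group over all 15 RPF libraries, as quasi-likelihood tests with Benjamini-Hochberg adjustment over all genes tested. Calls needed both an adjusted p under 0.05 and a change of more than 1.5-fold. TE was the interaction in one fit of 31 libraries, and the genotype difference the interaction of treatment and genotype. Classes with at least 6 tested members were ranked by their median, and the 10 highest and 10 lowest outside the set-aside classes, plus any with over 30% called one way, were described. Named genes were members of those classes that were called, had the largest or smallest change or the most footprints, Eif2s1 and markers, and the 15 called genes with the largest change in each direction whose groups lay apart and whose higher group had at least 10 counts. Other members without a call, and Pabpc4, were added after values were seen. The classes, lists and members were chosen with earlier results of these data known. Same-numbered RPF libraries deviated together at correlations of 0.0027, 0.109 and 0.20, so replicate numbers were not taken as pairs. The code was tested on simulated data. An exact two-sided rank test of 3 against 4 libraries cannot go below 0.0571 and was not used. Alternatives were other scalings, filters, DESeq2 1.42.0, a replicate block and leaving out each library. Promoter windows came from RefSeq, and 6 list symbols were not matched. Some genes are not reported here by name.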

Additional observations from a re-analysis of the deposited data

Results flagged for a closer look

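The 4 bortezomib libraries were checked for a single value far from the other 3, for 134 genes and 21 class shares. Chance alone marks about 1 in 20 such groups. The lowest library stood apart at 20.7 CPM for Zfp750, an epidermal factor, at 9.46 CPM for the tissue factor gene F3, at 12.4 CPM for Dlx2 and at 8.40 CPM for Lfng. One library also stood apart at 61.2 CPM for Me1, 1311 CPM for Prdx1, 1225 CPM for Slc38a2 and 437 CPM for Eef1b2, and at 1.37% for the footprint share of ATF4 targets.

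The interaction test in edgeR's quasi-likelihood fit, which compares the response to bortezomib between S51 and S51A, was read for the same 134 genes. At an adjusted p under 0.05 and whatever the size, the response differed for 24 of them. It was higher in S51 for the ISR genes Ddit3 (2.42 on the log2 scale), Ppp1r15a (2.12), Chac1 (1.59), Atf5 (1.42), Atf4 (1.40), Vegfa (1.39) and Slc38a2 (0.59). It was also higher for Gadd45a (2.01), Zfp750 (1.59), Zfand2a (1.47), Polk (0.92), H4c14 (0.80), Hmox1 (0.75) and H2bc3 (0.73). It was lower in S51 for the factors Esrra (−1.42), Tcf3 (−1.13) and Tcf12 (−0.99), for the YAP target Ccn2 (−0.91), and for the TOP mRNAs Eef2 (−1.13), Eef1a1 (−0.94), Eef1b2 (−0.76), Pabpc1 (−0.72), Fau (−0.72) and Eef1g (−0.57), the last below the change of 1.5-fold asked of calls. Counts of Fau and Eef1a1 rest on unique mapping among near-identical copies. Many of the 134 genes were chosen by their change in S51, and the same S51 libraries enter the difference. The share of all tested genes at this cut was not counted, so the 24 are a list and no result about these genes.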

How the results depend on the processing

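The counts of called RPF genes kept within 1.5 times their value under every alternative run, from 559 to 876 higher and 819 to 1279 lower. None of the 21 described class medians reversed. None of 223 named genes reversed either, but these were mainly genes called in the main fit, for which a change of sign was unlikely from the start. Of 1757 called genes 1632 were shared with DESeq2, 1692 with no filter, 1300 with at least 10 counts in every S51 library, 1423 with the 7 S51 libraries alone and 1316 without vehicle replicate 2. Of 3076 values for named genes, 2919 kept their call and 157 lost it, 36 of them without vehicle replicate 2. With a replicate block the RPF counts were 689 and 1036, those of total RNA 670 and 1133 and of the genotype difference 108 and 85. The replicate block changed the call of 6 of the 223 named genes. For TE another block joined the RPF and total RNA libraries of the same group and number. It used only pairs with both kinds of library, and its counts were 84 and 304. With library sizes alone, total RNA gave 416 and 1733 calls and TE 403 and 241, the choice of scaling being the only change.

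Some class medians shifted further with the setting. DESeq2 gave 0.11 for cholesterol genes, −0.42 for G protein-coupled receptors and −0.41 for clock genes. Without a filter the medians were 0.22 for cholesterol genes, 0.20 for ubiquitin genes, 0.21 for histones, −0.30 for homeobox factors, −0.15 for nuclear receptors, −0.13 for forkhead factors, −0.17 for bHLH factors, −0.20 for Kruppel-like factors, −0.073 for G protein-coupled receptors and −0.53 for clock genes. With at least 10 counts in every library they were 0.25 for keratins, 0.51 for cholesterol genes, −0.59 for Kruppel-like factors, −0.19 for G protein-coupled receptors, −0.46 for the EGF family and −0.14 for clock genes, over fewer genes. The replicate block gave 0.23 for cholesterol genes and −0.25 for the EGF family, and the 7 libraries alone −0.13 for clock genes. The cause was not tested.

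Leaving out each library in turn gave medians from 0.58 to 0.68 for proteasome subunits, 0.52 to 0.65 for NRF2 targets, 0.22 to 0.45 for keratins, 0.20 to 0.42 for cholesterol genes, 0.23 to 0.33 for ubiquitin genes and 0.15 to 0.40 for histones. The range was wider for cohesin and condensin, from 0.20 without vehicle replicate 2 to 0.64 without vehicle replicate 3. Among falling classes the ranges were −0.86 to −0.59 for MAPK feedback genes, −0.80 to −0.42 for homeobox factors, −0.43 to −0.068 for bHLH factors, −0.49 to −0.23 for Kruppel-like factors, −0.39 to −0.29 for G protein-coupled receptors, −0.37 to −0.085 for the EGF family and −0.46 to −0.19 for clock genes. Nuclear receptors ranged from −0.65 to −0.43 and forkhead factors from −0.5 to −0.23. Genes with few counts, such as Spry2 and Pik3ip1, limit what can be said of single transcription factors and signalling genes at this depth.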
